A study of Mus musculus with 12 samples.

Results

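The regions described here are H3K27me3 peaks that were listed in wild-type mouse embryonic fibroblasts (MEFs), with and without doxorubicin, and in neither list of lincRNA-p21 knockout cells. A peak of the wild-type (WT) doxorubicin list was taken when it overlapped a WT mock peak by at least 1 bp and overlapped no peak of the knockout (KO) doxorubicin or KO mock list. Of 17517 peaks in the WT doxorubicin list, 1394 met this rule (7.96%, exact 95% binomial interval 7.56 to 8.37 over peaks). They are called WT-only peaks below, a name for presence in peak lists and not for a measured absence of the mark in KO cells. Of the 16160 WT mock peaks, 1083 (6.70%) overlapped a WT doxorubicin peak and no KO peak. The peaks were chosen by their presence and absence in the 4 H3K27me3 lists. Their number, scores, clustering and distances to KO H3K27me3 are therefore given as a description.

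The groups were KO doxorubicin (lincRNA-p21-/-, 0.5 mM doxorubicin for 24 h as labelled), KO mock (lincRNA-p21-/-, mock-treated), WT doxorubicin (lincRNA-p21+/+, same dose and time) and WT mock (lincRNA-p21+/+, mock-treated). All were primary MEFs of a hybrid 129/B6 background. Each group had 1 ChIP library for H3K27me3 and 1 for H3K4me3, so no value below has a replicate check and no test between genotypes or treatments was possible. The labels do not say how many embryos or cultures stood behind a library.

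H3K27me3 is laid down by Polycomb repressive complex 2, usually over CpG-rich promoters of genes that are kept silent, and in fibroblasts it covers many regulators of other lineages. It can form broad domains as well as short peaks. H3K4me3 marks promoters that are active or poised, and a place with both marks is called bivalent. Doxorubicin damages DNA and activates p53, and lincRNA-p21 is a long noncoding RNA transcribed next to the gene of the cell-cycle inhibitor p21 and induced by p53. The series title places lincRNA-p21 in the expression of Polycomb target genes, which is the question that H3K27me3 in WT against KO cells addresses.

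Each entry has coordinates, a running number from the peak caller and a score that the authors deposited, defined in the file headers as −10 times log10 of the p-value. No list holds a score under 80. The H3K27me3 lists held 17828 peaks in KO doxorubicin, 16580 in KO mock, 17517 in WT doxorubicin and 16160 in WT mock cells, and read depth is unknown. For H3K4me3 there were 15095 peaks in KO doxorubicin, 14326 in KO mock, 16477 in WT doxorubicin and 14897 in WT mock cells. Positions are on build mm9. WT mock H3K27me3 covered 48.0 Mb, against 35.9 to 39.0 Mb in the other 3 lists. Its peaks were also the widest, with a median of 2015 bp against 1310 to 1475 bp, and its part in the results was not tested.

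The WT-only peaks were weak and narrow. Their median WT doxorubicin score was 109 (quartiles 92.7 and 137, highest 387), against 151 (103 and 297, highest 3217) for the other 16123 peaks of the list. Their median width was 1170 bp against 1523 bp. The 2737 WT doxorubicin peaks found in no other list were weaker and narrower still, with medians of 97.7 and 1072 bp. With the list cut into 10 deciles by score, 12.0 to 13.4% of the peaks were WT only in each of the lowest 5. The share was 8.68% in the sixth decile, 5.71% in the seventh, 2.28% in the eighth and 0.228% in the ninth, and 0 of the 1751 peaks of the highest decile belonged. Of the 1394 peaks 1098 (78.8%) therefore lay in the lower 5 deciles, at scores up to 144.4. Compared at the same score, the WT-only peaks were as wide as the others, with medians of 943 bp and 951 bp in the lowest decile and 2404 bp and 2312 bp in the eighth.

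**Figure D1:**
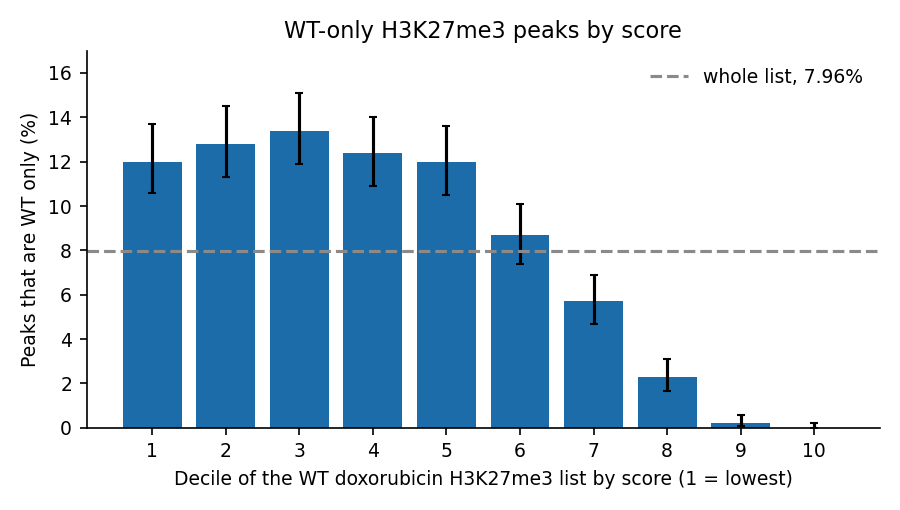
The bars give the percentage of WT doxorubicin H3K27me3 peaks that are WT only in each decile of the list by score, with exact 95% binomial intervals over peaks, and the dashed line gives the whole list at 7.96%. The share lies between 12.0 and 13.4% in the lowest 5 deciles and reaches 0 in the highest.

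In WT mock cells the same places carried 1385 distinct partner peaks, with a median score of 134 and a median width of 1856 bp. Both WT scores reached 150 for 135 WT-only peaks (9.68%), 200 for 32 and 300 for 3. The WT doxorubicin score was the higher of the 2 for 34.2% of WT-only peaks and for 36.4% of the peaks shared by all 4 lists, scores of separate libraries being on no common scale. WT mock peaks covered at least 50% of the width in 1103 cases (79.1%) and the whole width in 462 (33.1%).

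A part of the WT-only peaks sat beside larger domains that KO cells also had. For 432 of them (31.0%, 28.6 to 33.5) the WT mock partner itself overlapped a KO peak. The WT mock peak was then shared and the WT doxorubicin peak that met it was not. As 1 bp of overlap made a partner, such a peak need not be a piece of the partner. On chromosome 4 from 117601618 to 117602841, WT mock covered 9.4% of the width. These 432 had a median score of 103 in WT doxorubicin and 233 in WT mock, where the partner was 2920 bp wide in the median. The other 962 had 112 in WT doxorubicin and 121 in WT mock, with partners of 1702 bp. Their median distances to a KO peak were 353 bp for the 432 and 3514 bp for the 962. In the mirror class, 708 KO-only peaks (KO doxorubicin peaks with a KO mock peak and no WT peak), the KO mock partner overlapped a WT peak in 15.0% (12.4 to 17.8). In the WT doxorubicin list itself a peak present in all 4 lists lay within 3 kb of 364 WT-only peaks (26.1%), against 57.1% of the peaks that were themselves in all 4 lists and 13.8% of the 2737 peaks found in this list alone (15.6% of the list).

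**Figure D2:**
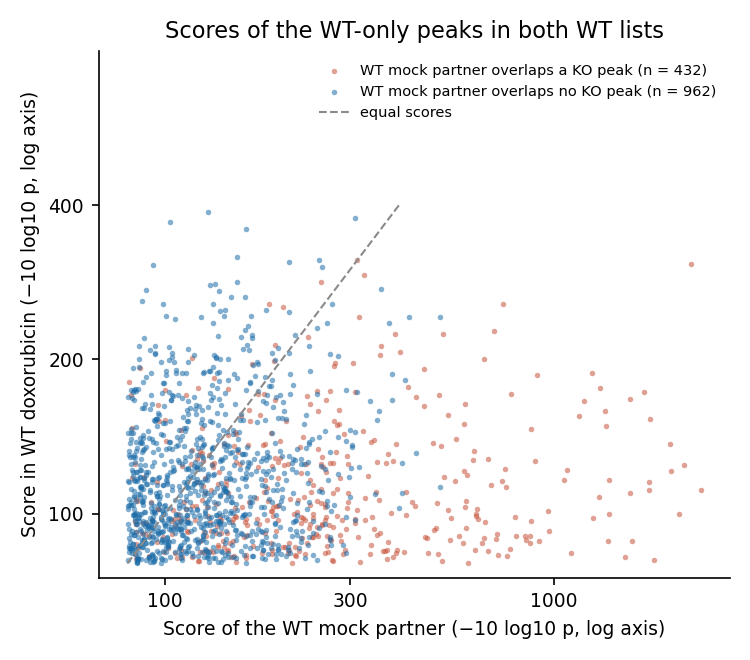
Each point is a WT-only peak, with the score of its WT mock partner on the x axis and its WT doxorubicin score on the y axis, both −10 log10 p on log axes. The 432 peaks whose partner overlaps a KO peak reach far to the right, and the other 962 cluster near the floor of both lists.

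The peak with the highest score lay on chromosome 5 from 24153215 to 24156644, 3430 bp wide, with a score of 387 in WT doxorubicin and 129 in WT mock cells. Its nearest KO peaks were 13883 bp away in KO doxorubicin and 14866 bp away in KO mock cells, and scored 139 and 162. The second, on chromosome 8 at 12366937 to 12370783, was the widest of the class at 3847 bp and scored 378 in WT doxorubicin and 307 in WT mock cells. It was 4183 bp from a KO doxorubicin peak and 249 bp from a KO mock peak of 971 bp, so that a small KO peak stood almost against it. Another peak of this neighbourhood, on chromosome 8 from 12423112 to 12425508, scored 307 in WT doxorubicin and 2253 in WT mock cells. There the WT mock partner was a domain of 11097 bp, and KO doxorubicin and KO mock peaks of 10442 bp and 9015 bp ended 486 bp and 53 bp away. It was thus a piece of a WT mock domain that overlapped KO peaks elsewhere along its length.

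Of the 10 highest-scoring peaks, 2 had such a shared partner, the one just described and that on chromosome 11 at 72230047 to 72232916 (313 in WT doxorubicin and 311 in WT mock). The remaining 6 were on chromosome 7 from 31494611 to 31497753 (370 and 103), chromosome 15 at 84237167 to 84239605 (359 and 161), chromosome 2 from 180783860 to 180786617 (317 and 153), chromosome 1 at 136582868 to 136585819 (313 and 248), chromosome 10 from 84249957 to 84252857 (310 and 209), and on chromosome 9 at 106017429 to 106019694 (305 and 92.9). Over these 10 peaks the nearer KO peak was 53 to 27307 bp away. The 5 widest added chromosome 8 at 97418833 to 97421991, 3159 bp wide with scores of 283 and 153, and chromosome 14 from 25460268 to 25463381. That place on chromosome 14 was 3114 bp wide, scored 242 in WT doxorubicin and 424 in WT mock cells, where its partner spanned 5868 bp, and lay 100969 bp from a KO doxorubicin and 100313 bp from a KO mock peak.

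Most WT-only peaks were close to KO H3K27me3. The median distance to the nearest peak was 3448 bp in the KO doxorubicin list, 2988 bp in the KO mock list and 1640 bp to the nearer of both (quartiles 449 and 5968 bp). Distances count the step from the last base of one peak to the first base of the next, so that 1 bp means touching ends. Of the 1394 peaks, 551 (39.5%, 36.9 to 42.1) lay within 1 kb of a KO peak, 1145 (82.1%) within 10 kb and 1314 (94.3%) within 50 kb. A KO peak stood within 10 kb on both sides of 546 (39.2%) and on 1 side of 599. The KO-only peaks had a median of 1788 bp to the nearer WT peak, with 38.6% (35.0 to 42.3) within 1 kb and 76.6% (73.3 to 79.6) within 10 kb. The WT doxorubicin peaks found in no other list were farther from KO peaks, at a median of 4212 bp with 23.9% (22.3 to 25.5) within 1 kb. The median distance was larger at higher scores, while the shares near to and far from KO peaks showed no steady trend. This median was 1555 bp in the lower 5 deciles of the list, 1798 bp in the sixth and seventh and 2126 bp for the 44 peaks of the eighth and ninth. The share within 1 kb was 39.9%, 40.5% and 25.0% in these classes, and the share beyond 50 kb was 6.28%, 3.57% and 4.55%.

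**Figure D3:**
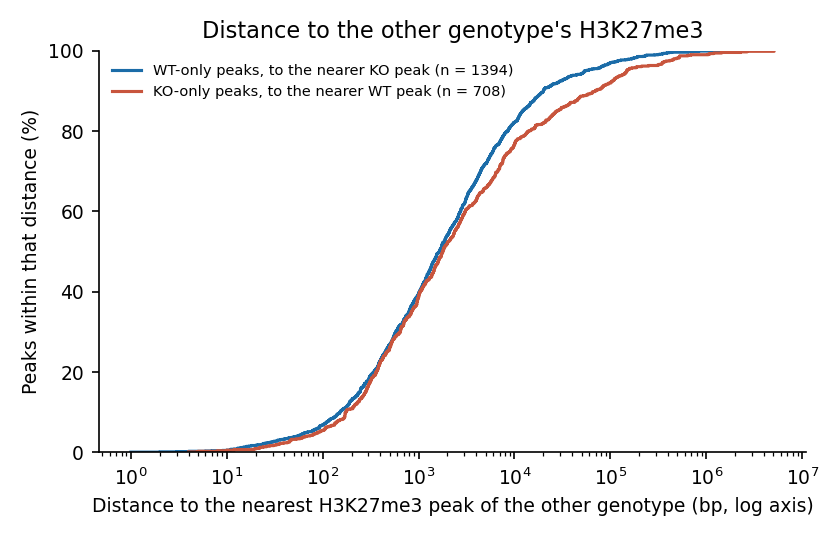
The curves give the percentage of WT-only peaks (n = 1394) and KO-only peaks (n = 708) that lie within a given distance of the nearest H3K27me3 peak of the other genotype, in bp on a log axis. At 1 kb they are at 39.5% and 38.6%, and at 10 kb at 82.1% and 76.6%.

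At the border of the rule the choice turned on a few bases. The 3 nearest WT-only peaks were 1 bp from a KO mock peak (chromosome 1 at 134427231 to 134428315, score 97.6), 2 bp from one (chromosome 2 from 120077829 to 120078855, score 106) and 3 bp from KO doxorubicin H3K27me3 (on chromosome 8, at 12564818 to 12565981, score 116). Just outside the rule, peaks on chromosome 4 at 150444408 to 150445732 (score 80.9), chromosome 7 from 134571271 to 134572285 (105) and chromosome 5 at 121134692 to 121136880 (153) overlapped a KO peak by 1, 2 and 4 bp. Within 100 bp of the border were 96 peaks on the inside, and 80 on the outside had no overlap with a KO list longer than 100 bp.

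At the other end, 80 WT-only peaks (5.74%) were more than 50 kb from any KO peak, 42 more than 100 kb and 5 more than 500 kb. The farthest lay 1450187 bp from a KO doxorubicin and 1450809 bp from a KO mock peak, on chromosome 7 from 46700248 to 46701475, with scores of 125 in WT doxorubicin and 123 in WT mock cells. It was followed by chromosome 2 at 112216957 to 112217926 (836755 bp from the nearer KO peak, scores 104 and 87.7), chromosome 1 from 188601237 to 188602015 (825811 bp, 84.6 and 157), chromosome 8 at 83866826 to 83867930 (730878 bp, 82.2 and 84.6) and chromosome 4 from 102650693 to 102652071 (638934 bp, 141 and 91.2). All 5 were short peaks, of 779 to 1379 bp. The 80 peaks had a median score of 105 (80.4 to 272), and 3 of them scored 150 or more in both WT lists.

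The numbering of the peaks has gaps. Peak numbers follow the order of the genome in each list, and 46.9% of the numbers are absent from the KO doxorubicin and 47.2% from the KO mock H3K27me3 list. Numbers missing between 2 neighbouring KO peaks are read here, as an assumption, as peaks that the caller numbered there and that are not listed. Their positions within the gap and their scores are not known. Each WT-only peak lay in such a gap of both KO lists. Numbers were missing around 1172 in KO doxorubicin and 1173 in KO mock cells, and around 998 in both. In 47 cases (3.37%, 2.49 to 4.46) no number was missing in either list. For the KO-only peaks the same count in the WT lists was 26 of 705 (3.69%).

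Gaps that held a WT-only peak had a missing number more often than other gaps of the same length class from 5 kb upwards. Between KO doxorubicin peaks 5 to 10 kb apart it was 72.3% (64.0 to 79.6) of 137 gaps with a WT-only peak and 52.8% (50.2 to 55.4) of 1405 others. Between KO mock peaks at that spacing it was 74.8% (67.1 to 81.5) of 151 and 53.4% (50.8 to 56.1) of 1379. At 10 to 50 kb the shares were 85.9% and 64.9% in the KO doxorubicin list, and 85.5% and 63.3% in the KO mock list. At 2 to 5 kb the intervals overlapped, with 54.2% (43.7 to 64.4) and 42.7% (40.5 to 44.9) in KO doxorubicin and 49.1% (39.3 to 58.9) and 41.2% (39.0 to 43.5) in KO mock cells. The other gaps were all gaps without a WT-only peak, and those with and without another WT peak were not separated. Whether unlisted peaks lay at the WT-only places was not tested.

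**Figure D4:**
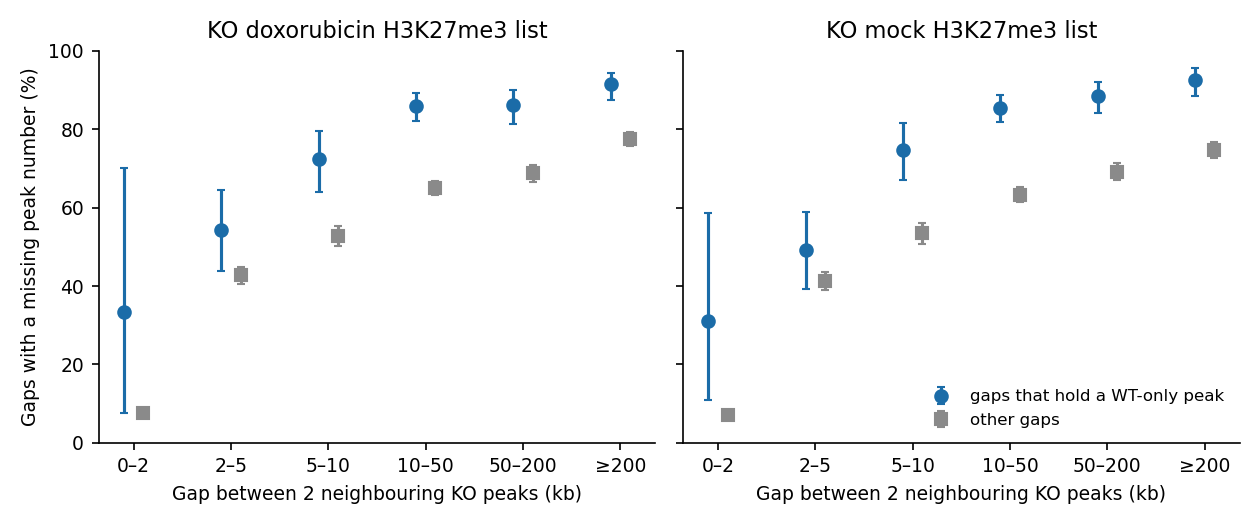
The points give the percentage of gaps between neighbouring KO H3K27me3 peaks with at least 1 missing peak number, by gap length in kb, for gaps with a WT-only peak and for all other gaps, with exact 95% binomial intervals. Gaps with a WT-only peak lie higher in each length class of both lists, and the intervals overlap at 2 to 5 kb in both lists and below 2 kb in the KO doxorubicin list.

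The 47 WT-only peaks with no KO number missing around them had a median score of 106 (82.4 to 199) and mostly lay close to KO peaks, at a median of 506 bp. Those with the highest scores, picked after the values were seen, were on chromosome 8 at 87531895 to 87533682 (199 in WT doxorubicin, 103 in WT mock, 729 bp from a KO peak), chromosome 9 from 54832579 to 54834564 (188 and 1253, 364 bp) and chromosome 5 at 113720078 to 113722300 (187 and 905, 150 bp). Of the 47, 2 were more than 5 kb from KO H3K27me3. One was on chromosome 1 from 194970487 to 194971456 (151 in WT doxorubicin and 103 in WT mock, 7355 bp from a KO peak). The other was on chromosome 11 at 102692013 to 102692812 (106 and 87.3, 54748 bp). Short gaps less often had a missing number. Among gaps without a WT-only peak in KO doxorubicin it was 7.66% under 2 kb and 64.9% at 10 to 50 kb. The closeness of the 47 to KO peaks therefore partly follows from the choice.

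In the list as deposited, WT-only peaks had neighbours of their own class more often than other peaks did, and with close peaks joined they did not. Of the 1394, 341 (24.5%, 22.2 to 26.8) had another WT-only peak directly before or after them in the WT doxorubicin list, against 14.4% (13.8 to 14.9) of the other peaks. The excess was found at short range. Neighbouring WT doxorubicin peaks can lie in the same KO gap or on the same WT mock partner, and then meet the rule together. How much of the excess follows from this was not tested. Where the next peak was less than 5 kb on, it was WT only after 17.9% (14.8 to 21.3) of 576 WT-only peaks and after 6.27% (5.75 to 6.83) of 7938 others. At 5 to 50 kb these were 10.5% (7.90 to 13.5) and 9.90% (9.02 to 10.8), and beyond 50 kb 9.67% (6.71 to 13.4) and 7.35% (6.55 to 8.22). With peaks less than 3 kb apart joined beforehand, such a neighbour was found for 13.6% (11.2 to 16.3) of 721 WT-only regions and for 13.6% (12.9 to 14.3) of the 9565 others. In the KO doxorubicin list a KO-only neighbour stood beside 11.7% (9.45 to 14.3) of KO-only peaks and 7.55% (7.16 to 7.96) of the others. KO-only peaks made up 3.97% of that list.

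Most stood alone, with 1053 single peaks, 128 pairs, 23 runs of 3 and 4 runs of 4. The first run of 4 lay on chromosome 2 from 26133683 to 26142028, within 8.35 kb, with scores of 108, 112, 128 and 119. Its distance to KO H3K27me3 shrank along the run from 7817 bp to 648 bp. The next was on chromosome 5 at 35771057 to 35796254, with scores of 116, 186, 127 and 97.2, and was 332 to 14635 bp from KO peaks. The third in order was on chromosome 8 from 122105963 to 122149542, with scores of 132, 141, 203 and 265, at 254 to 6255 bp from KO peaks.

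On a larger scale 635 of the 1650 windows of 1 Mb with any WT doxorubicin peak held a WT-only peak, and 65 windows held 5 or more, 423 peaks in all. The richest was chromosome 2 from 180 to 181 Mb, where 14 of 61 peaks (23.0%) were WT only. Chromosome 5 from 35 to 36 Mb had 11 of 61 (18.0%) and chromosome 8 from 12 to 13 Mb had 11 of 69 (15.9%). KO H3K27me3 was dense in all 3 windows. The windows were picked for peaks listed in WT and not in KO cells, so lower KO coverage there partly follows from the choice. In the window on chromosome 2 H3K27me3 covered 112 kb in KO doxorubicin and 136 kb in KO mock cells. Against these stood 156 kb in WT doxorubicin and 204 kb in WT mock cells. On chromosome 5 these were 91.4 and 94.3 kb in KO, against 132 and 149 kb in WT cells. On chromosome 8 they were 131 and 141 kb in KO, against 161 and 184 kb in WT cells. Over the whole lists H3K27me3 covered 35.9 Mb in KO doxorubicin and 36.3 Mb in KO mock cells. In WT doxorubicin and WT mock cells it covered 39.0 and 48.0 Mb.

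In these windows the KO lists held fewer H3K4me3 peaks than the WT doxorubicin list, which was the longest of the 4 genome-wide. Chromosome 5 from 35 to 36 Mb had 8 H3K4me3 peaks in KO doxorubicin and 8 in KO mock cells, against 13 in WT doxorubicin and 12 in WT mock cells. The median distance of its WT-only peaks to H3K4me3 was 122 kb in either KO list, against 26.4 kb in WT doxorubicin and 26.6 kb in WT mock cells. Chromosome 8 from 12 to 13 Mb had 3 H3K4me3 peaks in each KO list, against 8 in WT doxorubicin and 4 in WT mock cells. There the median distance was 113 kb in KO doxorubicin, KO mock and WT mock cells and 31.2 kb in WT doxorubicin cells. For the WT-only peaks of this window named above, the nearest WT doxorubicin H3K4me3 scored 134, 144 and 230, against a list median of 1526. Their nearest H3K4me3 scored 3100 in KO doxorubicin, 1863 in KO mock and 2801 in WT mock cells, each above its list median. Neighbouring WT-only peaks can share a nearest H3K4me3 peak. Whether the shorter WT doxorubicin distance rests on a few low-scoring peaks was not tested. On chromosome 2 from 180 to 181 Mb the counts were 16 and 14 in KO, against 20 and 15 in WT cells.

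By chromosome the WT-only share of WT doxorubicin peaks was highest on chromosome 16 (43 of 391, interval 8.07 to 14.5%) and chromosome 2 (187 of 1853, 10.1%, 8.76 to 11.6). It was 9.28% on chromosome 11 and 9.23% on chromosome 5. The lowest share of an autosome was 5.81% (4.12 to 7.92), on chromosome 13. Chromosome X carried 1 WT-only peak among 69 (1.45%, 0.0367 to 7.81), few peaks of any kind being listed there. On chromosome 2 the KO-only share was 3.84%, close to the 3.97% of that whole list.

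Few WT-only peaks overlapped H3K4me3. An overlap with an H3K4me3 peak was found for 18 (1.29%, 0.767 to 2.03) in KO doxorubicin, 10 (0.717%, 0.345 to 1.32) in KO mock, 18 (1.29%, 0.767 to 2.03) in WT doxorubicin and 14 (1.00%, 0.550 to 1.68) in WT mock cells. Among the other peaks of the WT doxorubicin H3K27me3 list the shares were 10.5% in KO doxorubicin, 10.6% in KO mock, 16.2% in WT doxorubicin and 14.3% in WT mock cells. In total 1371 WT-only peaks (98.4%) met no H3K4me3 peak in any list, against 83.1% of the others. H3K4me3 took no part in the choice of the peaks. The low share was not particular to the WT-only class, since 23 of the 2737 peaks found in the WT doxorubicin list alone (0.840%, 0.533 to 1.26) overlapped WT doxorubicin H3K4me3.

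The share was also lower than that of other peaks of similar score or width. In the lower 5 deciles by score 1.37% (0.767 to 2.24) of WT-only and 4.27% (3.83 to 4.75) of other peaks overlapped WT doxorubicin H3K4me3. In the sixth decile it was 1.32% (0.160 to 4.67) of 152 and 7.62% (6.37 to 9.04) of 1600, and in the seventh 1.00% (0.0253 to 5.45) of 100 and 12.0% (10.5 to 13.7) of 1651. Among peaks of 995 to 1469 bp, the middle 50% of WT-only widths, it was 1.86% (0.994 to 3.16) and 5.83% (5.21 to 6.50). Taken singly, the intervals of the 2 sets overlapped in each of the lowest 4 deciles, as in the lowest with 1.90% (0.519 to 4.78) and 2.40% (1.70 to 3.29), and did not overlap in the fifth to eighth.

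The KO-only peaks were also weak within their own list, with a median score of 109 against 144 for its other peaks. They were somewhat narrower than the WT-only peaks (median 1049 bp) and overlapped H3K4me3 several times as often. Of the 708, 8.05% (6.15 to 10.3) did so in KO doxorubicin, 7.34% (5.53 to 9.52) in KO mock, 9.18% (7.16 to 11.6) in WT doxorubicin and 8.62% (6.65 to 10.9) in WT mock cells. Against WT doxorubicin H3K4me3 the WT-only share lay between 1.18 and 2.79% and the KO-only share between 9.18 and 21.3% under the main rule and 7 other settings of score floor, overlap, distance and joining. In the lower 5 deciles of the KO doxorubicin list by score, 6.95% (4.94 to 9.46) of KO-only and 3.17% (2.81 to 3.57) of other peaks overlapped KO doxorubicin H3K4me3, whereas for WT-only peaks the share was below that of the others in their list.

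**Figure D5:**
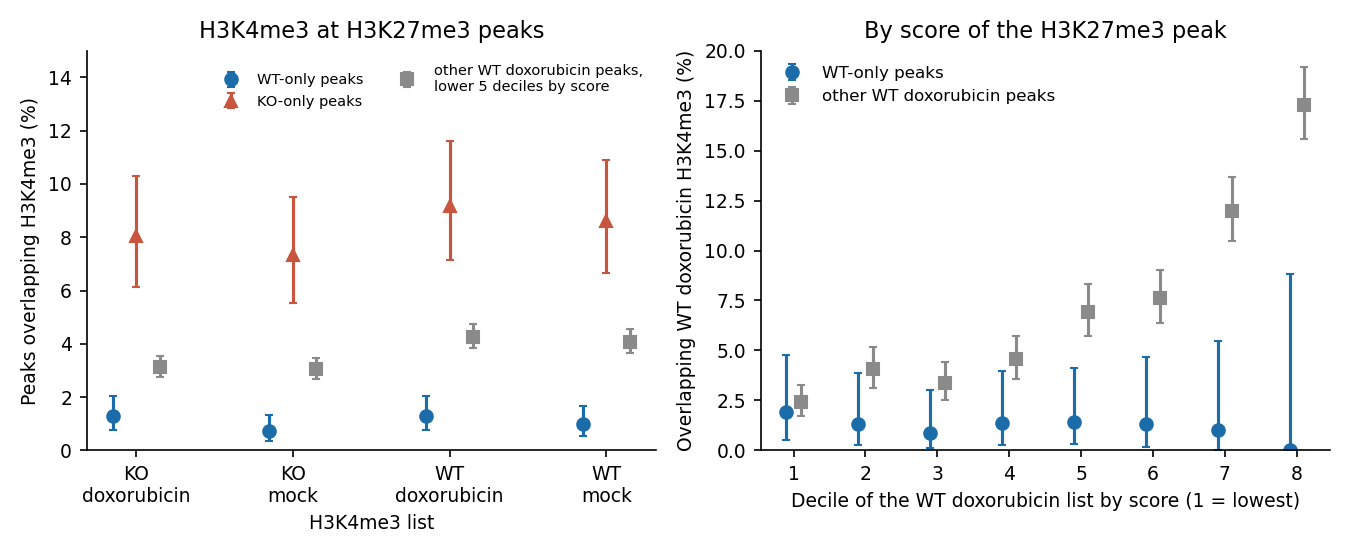
On the left, points give the percentage of WT-only, KO-only and other low-scoring WT doxorubicin H3K27me3 peaks that overlap an H3K4me3 peak in each H3K4me3 list. On the right, the same for WT doxorubicin H3K4me3 by decile of H3K27me3 score, with exact 95% binomial intervals in both. WT-only peaks lie between 0 and 1.90% on the right, while the other peaks reach 17.3% in the eighth decile.

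Within 10 kb the picture depended on score. A WT doxorubicin H3K4me3 peak lay that near to 34.4% (31.9 to 36.9) of all WT-only peaks, against 44.0% (43.3 to 44.8) of all others. In the lower 5 deciles the shares were 33.6% (30.8 to 36.5) of WT-only and 33.2% (32.1 to 34.2) of other peaks. In the sixth to ninth deciles they were 37.2% (31.6 to 42.9) and 47.2% (46.0 to 48.4), though the WT-only peaks of that range sat mostly at its lower end, where the others were at 39.1% (sixth decile) and 42.7% (seventh). Within 10 kb of the WT-only peaks H3K4me3 was listed at 27.6% (25.3 to 30.0) in KO doxorubicin, 26.6% (24.3 to 29.0) in KO mock, 34.4% in WT doxorubicin and 30.8% (28.4 to 33.3) in WT mock cells. The low-scoring other peaks had 27.3%, 27.1%, 33.2% and 30.9% in these lists, with the same order of the lists. The 80 peaks more than 50 kb from KO H3K27me3 had H3K4me3 within 10 kb in 37 cases in KO doxorubicin (46.2%), 35 in KO mock (43.8%), 37 in WT doxorubicin (46.2%) and 37 in WT mock cells (46.2%).

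For H3K4me3 near WT-only places, absence from KO lists was about as frequent as near other low-scoring peaks, with overlapping intervals. Within 10 kb of the WT-only peaks lay 439 distinct WT doxorubicin H3K4me3 peaks, and 88 of these (20.0%, 16.4 to 24.1) had no overlapping peak in either KO list. Around WT-only peaks of the lower 5 deciles alone it was 58 of 345 (16.8%, 13.0 to 21.2). Around the other peaks of these deciles it was 353 of 2005 (17.6%, 16.0 to 19.3). Around other H3K27me3 peaks of all scores it was 862 of 3986 (21.6%, 20.4 to 22.9). Over the whole WT doxorubicin H3K4me3 list it was 1680 of 16477 (10.2%).

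The 23 WT-only peaks that met H3K4me3 in some list scored 80.1 to 190, with a median of 102. In 8 of them H3K4me3 was present in all 4 lists. The strongest of these, on chromosome 2 at 150492424 to 150493847 (190 in WT doxorubicin and 101 in WT mock), overlapped H3K4me3 peaks scored 710 in KO doxorubicin, 438 in KO mock, 1163 in WT doxorubicin and 636 in WT mock cells. The next were on chromosome 4 from 117601618 to 117602841 (125 and 207), chromosome 11 at 120809157 to 120810437 (118 and 298), chromosome 14 from 70576216 to 70577524 (118 and 161) and chromosome 12 at 106102637 to 106104059 (102 and 113). The places on chromosomes 11 and 14 were 80584 bp and 95197 bp from the nearer KO H3K27me3 peak. Among the 23, 9 met H3K4me3 in KO doxorubicin and not in KO mock cells, and 1 did the reverse. KO mock H3K4me3 lay 39 to 96 bp from those starting at 52458625 on chromosome 7, 93025963 on chromosome 2 and 52070163 on chromosome 3. For the others of the 9 it lay 2189 to 188521 bp away. The reverse case lay 84 bp from KO doxorubicin H3K4me3. Among the other peaks of the list 10.5% overlapped H3K4me3 in KO doxorubicin and 10.6% in KO mock cells.

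A single WT-only peak overlapped H3K4me3 in both WT lists and neither KO list. It lay on chromosome 19 from 59543396 to 59544311 and lay inside a WT mock domain of 7752 bp, with scores of 80.1 in WT doxorubicin and 602 in WT mock cells. Its H3K4me3 peaks scored 104 in WT doxorubicin and 123 in WT mock cells, close to the floor, and the nearest KO H3K4me3 was 5570 bp away in KO doxorubicin and 6493 bp away in KO mock cells. H3K27me3 ended 426 bp away in KO mock cells and was 205850 bp away in KO doxorubicin cells. In 3 further WT-only peaks H3K4me3 overlapped in WT doxorubicin cells and in none of the 3 other lists. For that on chromosome 12 at 84830005 to 84830995, H3K4me3 of the other lists lay 80 to 224 bp away. On chromosome 4 from 129983841 to 129984835 it lay 88 to 302 bp away. Only on chromosome 9 at 44480044 to 44481229 was it far off, at 46879 to 47496 bp.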

How the data were processed

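Peak lists of 8 ChIP-seq libraries (H3K4me3 and H3K27me3 in 4 conditions) were used, without the 4 inputs. The submitters' processing notes list the aligner Bowtie 0.12.7, the peak caller MACS 1.4.2 and the mouse build mm9. The deposited score is −10 times log10 of the p-value per the file headers. It is the authors' value for a peak and was used within a list to describe, rank or filter. Starts were taken to count from 0 and are printed counting from 1. Read depth is unknown, so intervals (exact Clopper-Pearson, 95%) cover counting error over peaks, which are not independent.

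Members and comparisons were chosen with earlier results of these data known. Peaks were compared by overlap of 1 bp and by distance. The rule for named regions took the 10 highest scores, the 5 widest, the 5 farthest from and 3 nearest to KO peaks, the 3 peaks just outside, the 3 longest runs, the 3 richest 1 Mb windows, and up to 5 with H3K4me3 in both WT or in all 4 lists. No mm9 genome or annotation was used, so genes and sequences are not given. Alternatives changed the score floor, the overlap, the distance asked of KO peaks, joining and the list started from. The 6 steps were tested on simulated peaks. The rule, the distances and the missing numbers used a simulated list of 17517 peaks. The neighbour and joining steps used small constructed examples. The work ran under Python 3.11.15 with scipy 1.17.1, pandas 2.3.3, numpy 2.4.6 and, for figures, matplotlib 3.10.9.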

Additional observations from a re-analysis of the deposited data

How the results depend on the processing

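The count of 1394 WT-only peaks stayed within 1.5 times under 4 of 8 settings (1069 at scores of at least 100, 1351 with equal numbers of top peaks per list, 1103 with 50% covered by WT mock peaks, 1083 when WT mock peaks were taken). It was 610 at scores of at least 150, 843 with no KO peak within 1 kb, 392 with none within 5 kb, and 721 with peaks less than 3 kb apart joined. The score floors also removed KO peaks, so peaks that overlapped only KO peaks below the floor entered the class. Of the 1394, 665 had both WT scores at 100 or more and 135 at 150 or more. With alternatives added after the data were seen, it was 2778 when absence was asked of KO doxorubicin alone, 2584 of KO mock alone, and 4131 with no WT mock peak asked for. The ratio of WT-only to KO-only peaks was 1.97 and ranged from 1.62 to 2.32. The median score of 109 became 134 and 196 at the score floors of 100 and 150, 116 with equal numbers and 117 from WT mock peaks. The median distance to KO peaks of 1640 bp became 1997 and 3568 bp at these floors, 4400 and 13475 bp with the 1 kb and 5 kb rules, 5220 bp with joining and 2461 bp from WT mock peaks. The share with a WT-only neighbour was 24.5%, against 14.4% of the other peaks. It became 20.3% (others 13.5%) at scores of at least 150 and 19.7% (others 11.6%) with 50% covered. With the 1 kb and 5 kb rules it was 21.5% (others 8.79%) and 17.1% (others 4.13%). It was 13.6% with joining (other regions 13.6%) and 16.8% (others 12.6%) from WT mock peaks. The share overlapping WT doxorubicin H3K4me3, 1.29%, became 2.79% at scores of at least 150 and 2.04% with the 5 kb rule, and was 3.16% within 1 kb and 34.4% within 10 kb of H3K4me3. The share with no KO peak number missing, 3.37%, became 1.54% and 0.51% with the 1 kb and 5 kb rules. Floors and distance rules change the set by construction, and other causes were not tested. Of 26 named regions 9 to 23 stayed in the class under these 8 settings. Genes at the peaks were planned and not run, as no mm9 annotation was used. No paired analysis was possible because each group had 1 library.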
